A study of Mus musculus with 19 samples.

Results

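Naive splenic B cells are compared here between mice labelled as knockout for Pik3cg and mice labelled wild type, 3 libraries against 3 of the 19 in the series. The 6 were taken by their labels, and of 19397 uniquely named genes in their expression table the 8832 with a mean of at least 10 CPM (counts per 1000000 reads) were examined. Just under that level were Aldoc (9.995 CPM) and Gar1 (9.996 CPM), and just above it Alkbh7 (10.008 CPM) and Dgcr6 (10.01 CPM). All mice had received sheep red blood cells, a particulate antigen, by intraperitoneal injection, and spleens were taken on day 28. Cells were sorted as CD3-, B220+ and IgD+, a gate that takes resting B cells that have not switched class. The first group carries the genotype label Pik3cg Knockout and the second the label Wild type, but the table heads the 3 wild-type columns HET, which may stand for heterozygous, and the sources used here do not settle which name is right. Groups are called labelled knockout and labelled wild type below. The labels give no strain, age, sex or deleted exon, and do not say whether the deletion was in all cells or in B cells alone. The series design names 3 wild-type and 4 knockout mice, and no label ties a library to a mouse, so p-values measure the spread between these samples, which may be technical.

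Pik3cg encodes p110γ, the catalytic subunit of the class IB phosphoinositide 3-kinase. The enzyme is recruited to the membrane by G protein βγ subunits below chemokine and other G protein-coupled receptors and makes the lipid PIP3, which AKT, PDPK1 and TEC-family kinases bind. In B cells the related subunit p110δ, encoded by Pik3cd, is the main PI3K below the antigen receptor. PIP3 is removed by phosphatases such as SHIP1, and AKT holds the transcription factor FOXO1 out of the nucleus, so FOXO1 target genes such as Klf2 are a common transcriptional readout of PI3K activity. A naive B cell recirculates through follicles in a quiescent state, with its antigen receptor, MHC class II and survival receptors as its most visible products.

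In units of 1000000 reads, the estimated depth of the libraries was 10.2 to 15.0, so 3 reads, the limit that a count of 0 allows, were worth 0.200 to 0.293 CPM, covering counting error only. All 10 B cell markers were present at over 10 CPM, and they summed to 54915, 56434 and 53584 CPM against 52559.8, 54210.1 and 57419 CPM (labelled knockout against labelled wild type, in replicate order, here and below). Of 18 T cell markers, 16 averaged under 10 CPM, as did 14 of 17 monocyte or macrophage markers, 9 of 11 neutrophil markers, 8 of 12 germinal centre markers and 14 of 20 markers of cycling cells. Plasma cell markers summed to 1503, 1513 and 1228 CPM against 1452, 1233 and 1215 CPM. Erythroid markers, at 429, 81.6 and 553 CPM against 271, 1335 and 466 CPM, and neutrophil markers, at 28.05, 58.5 and 6.35 CPM against 0.459, 165 and 29.6 CPM, spread widely between libraries of the same label. In bulk RNA, fewer cells of a type and less RNA per cell cannot be told apart.

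The question was how closely naive B cells of the 2 labels match, so the size of difference that each gene's data allow was taken as the result beside the test for a difference. No gene passed the test for a difference: limma called 0 of 8832 genes (0%) at an adjusted p under 0.05, and the smallest adjusted p was 0.728. Without adjustment, 587 genes (6.65%) had a p under 0.05, of which 325 (3.68% of those tested) had higher and 262 (2.97%) lower values in labelled knockout. A second test asked the reverse, whether the difference lies within a stated fold in either direction, with 2 one-sided tests per gene adjusted over all genes. By this test 5478 genes (62%) were bounded within 2-fold, 646 (7.31%) within 1.5-fold and 8354 (94.6%) within 4-fold. The genes bounded within 2-fold carried 87.4% of all CPM. That leaves 3354 genes whose data do not place them within 2-fold and 478 not within 4-fold, and for these the missing call gives no bound of that size.

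The median gene differed by 0.21 on the log2 scale in size, a 1.16-fold difference, with a standard error of 0.28. Its 95% interval reached 0.65 to either side, and the largest fold that the interval allowed was 1.85 for the median gene. That fold was at most 1.36 for the best-held 10% of genes and at least 3.60 for the worst-held 10%. An estimate past 2-fold was seen for 334 genes (3.78% of those tested), and these were scarce transcripts, with a median of 17.3 CPM against 37.3 CPM for all tested genes. Estimates past 4-fold numbered 21. For 2 genes the whole 95% interval lay past 2-fold: the pseudogene Gm10033 at 32.9, 41.3 and 29.3 CPM against 12.9, 6.17 and 7.12 CPM, and the unclassified transcript Gm37879 at 13.4, 30.9 and 15.7 CPM against 3.60, 0 and 3.25 CPM. Both were named after their values were seen, and neither passed (limma adjusted p = 0.728 and 0.730). The groups of 3 libraries did not overlap for 1201 genes (13.6%), 529 with higher and 672 with lower values in labelled knockout.

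**Figure D1:**
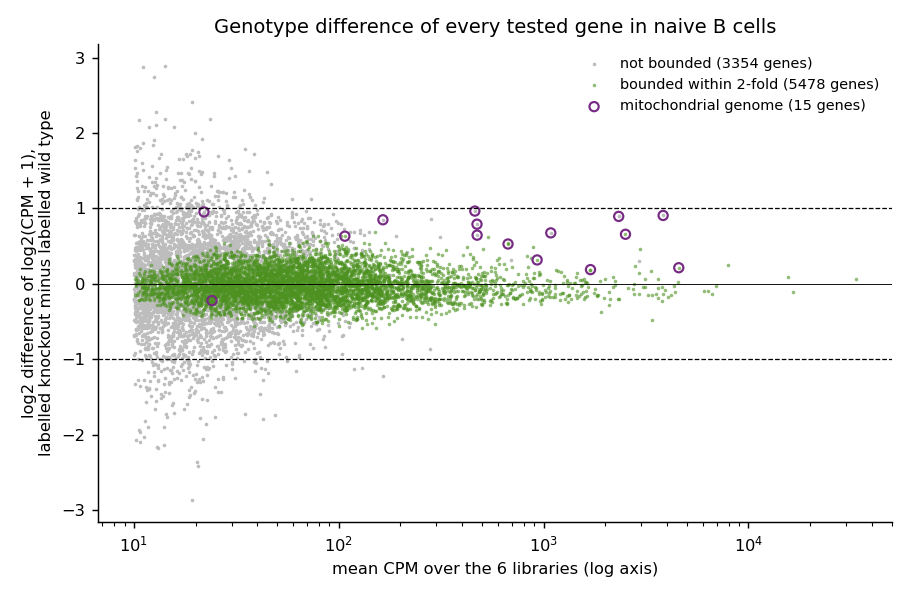
Log2 difference (labelled knockout minus labelled wild type, on log2(CPM + 1)) of each of 8832 genes against its mean CPM over the 6 libraries on a log axis, green where bounded within 2-fold and grey where not, with dashed lines at 2-fold. Of the 334 points past the dashed lines, 216 lie between 10 and 20 CPM and 0 at 500 CPM or more, and of the transcripts of the mitochondrial genome, circled, all but mt-Nd3 lie above 0.

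How tightly a gene was held went with its level. Between 10 and 20 CPM the median within-group SD was 0.53 on the log2 scale and 23.8% of 2214 genes were bounded within 2-fold. From 20 to 50 CPM the SD was 0.39 and 56.5% of 3109 genes were bounded, and from 50 to 100 CPM it was 0.27 with 85.2% of 1790. Above 100 CPM nearly every gene was bounded: 97.0% of 1457 genes between 100 and 500 CPM and 97.7% of 262 genes at 500 CPM or more, where the SD was 0.12 and 74.0% were held within 1.5-fold. The 6 genes at 500 CPM or more that were not bounded within 2-fold were the mitochondrial mt-Cytb, mt-Atp6 and mt-Nd1, the pseudogene Gm10925 (named after its values were seen), and the heat shock genes Hspa1a and Hspa1b. The share of genes at an unadjusted limma p under 0.05 was larger at higher levels too, from 4.47% between 10 and 20 CPM to 15.6% at 500 CPM or more. Of the genes bounded within 2-fold, 228 also had an unadjusted p under 0.05.

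**Figure D2:**
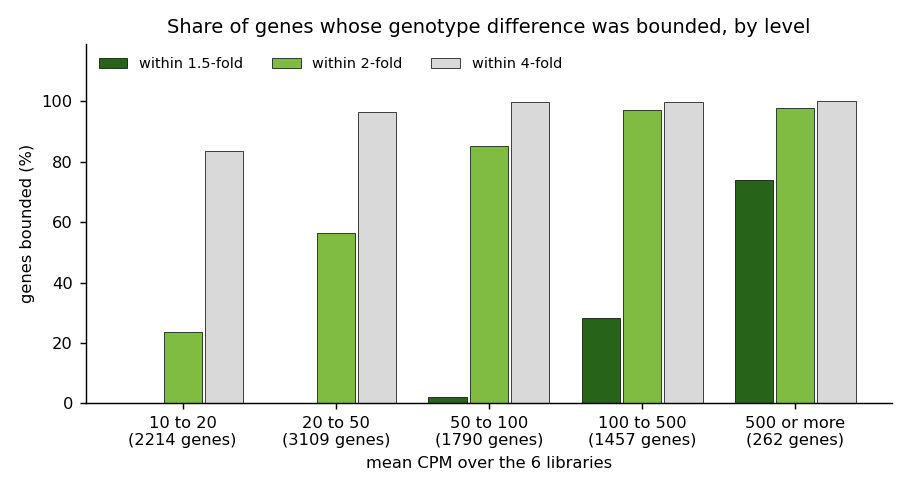
Percent of genes (bars, from 0) whose difference was bounded within 1.5-, 2- and 4-fold by 2 one-sided tests (adjusted p under 0.05), in 5 classes of mean CPM. The 2-fold bars climb from 23.8% to 97.7% and the 1.5-fold bars from 0% to 74.0%.

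By transcript class, 4208 of 7172 protein-coding genes (58.7%) and 1031 of 1199 processed pseudogenes (86.0%) were bounded within 2-fold, against 27 of 61 lincRNAs (44.3%). Processed pseudogenes, intronless copies of expressed genes, took 14.1% to 16.4% of all CPM per library, and which of their reads came from the parent gene cannot be told from these values. Variable segments of the antigen receptor differ from clone to clone. Of those tested, 56 of 73 kappa, 19 of 38 heavy-chain and 3 of 3 lambda segments were bounded within 2-fold (background 62%). The median level was 50.6 CPM for kappa and 18.5 CPM for heavy-chain segments, and the median within-group SD was 0.25 and 0.24. Of all genes, 23.8% were bounded between 10 and 20 CPM and 85.2% from 50 to 100 CPM.

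The similarity of 2 libraries was in the same range within and across labels. Across the tested genes, Pearson correlations of log2(CPM + 1) ran from 0.880 to 0.903 within labelled knockout, 0.892 to 0.912 within labelled wild type and 0.865 to 0.913 over the 9 pairs that cross the labels. Genes are not independent replicates, so these are descriptions. The median gene differed by 1.24- to 1.26-fold between 2 labelled-knockout libraries, by 1.23- to 1.25-fold between 2 labelled-wild-type libraries and by 1.23- to 1.32-fold across labels. Over 2963 genes at 10 CPM or more in every table of the series, the median within-group SD was 0.21 and 0.19 in the naive groups, 0.39 and 0.28 in germinal centre B cells labelled knockout and wild type, and 0.31 and 0.40 in splenic and bone marrow antibody-secreting cells. The tables were normalized separately, so this order is a description without a test.

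Pik3cg itself did not differ beyond the spread between libraries. It stood at 94.98, 127 and 97.7 CPM in labelled knockout and 115, 110.1 and 111 CPM in labelled wild type, and 1 labelled-knockout library was the highest of the 6. The log2 difference was −0.08 (95% interval −0.43 to 0.27, limma adjusted p = 0.935), and it was bounded within 2-fold, the interval allowing at most 1.35-fold. The gene lies on chromosome 12 from 32173473 to 32208659, minus strand, in mm10. The labels do not name the deleted exons, and 1 value per gene cannot show the loss of a few, so the genotype labels were not checked by this.

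Of the other catalytic subunits, Pik3cd, encoding p110δ, was at 97.2, 46.2 and 84.3 CPM against 42.6, 69.5 and 50.7 CPM, with overlapping groups and a difference that was not bounded within 2-fold (log2 difference 0.44, 95% interval −0.28 to 1.16). Pik3ca, encoding p110α, was at 45.7, 34.7 and 33.5 CPM against 31.5, 26.2 and 32.6 CPM; its groups did not overlap, and it was bounded within 2-fold (log2 difference 0.32, largest fold allowed 1.77). Pik3cb was under 1 CPM in every library. The regulatory subunit Pik3r1, which stabilises the class IA catalytic subunits, was at 94.5, 135 and 79.0 CPM against 44.8, 75.5 and 79.7 CPM (log2 difference 0.63, 95% interval −0.03 to 1.28), overlapping and not bounded. Of the 2 adaptors particular to p110γ, Pik3r5 (p101) was at 5.77, 4.86 and 4.54 CPM against 15.5, 7.46 and 1.14 CPM, under the filter, and Pik3r6 (p84) was at 0 in all 6 libraries.

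Of the inputs of p110γ, 6 of 6 tested G protein genes were bounded within 2-fold (background 62%). Gnb1, a Gβ subunit, was at 338, 314 and 284 CPM against 229, 289.7 and 299 CPM (log2 difference 0.20, 95% interval −0.11 to 0.51). Gnai3, an inhibitory Gα subunit, had the only unadjusted p under 0.05 among the 13 tested genes of the subunit and adaptor list, at 308, 245 and 261.4 CPM against 219.7, 234.97 and 208 CPM, with no overlap (log2 difference 0.29, limma adjusted p = 0.74), and it too was bounded within 2-fold. Pik3ap1, the adaptor BCAP, was at 20.3, 22.2 and 19.6 CPM against 24.8, 34.0 and 33.0 CPM, lower in each labelled-knockout library than in any labelled wild type, and not bounded (log2 difference −0.53, 95% interval −1.08 to 0.02). In all, 9 of the 13 were bounded within 2-fold, near the background of 62%, and 1 had an unadjusted p under 0.05 (background 6.65%). The median difference of the 13 was 0.19, against −0.01 over all tested genes. Pik3cd, Pik3ca, Pik3cb, Pik3r1, Pik3r5, Pik3r6 and Pik3ap1 are named for their roles, with their values known.

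Among 21 tested antagonists and effectors, 12 were bounded within 2-fold, a share near the background of 62%. In each direction 1 had an unadjusted p under 0.05 (background 3.68% higher and 2.97% lower), and the median difference was 0.15. Inpp5d, encoding the phosphatase SHIP1, was at 161, 64.3 and 125 CPM against 123, 102 and 126 CPM, the second labelled-knockout library being the lowest of the 6. Pik3ip1, a transmembrane inhibitor of PI3K that is high in resting lymphocytes, was at 90.3, 91.1 and 70.8 CPM against 61.9, 53.9 and 62.3 CPM without overlap (log2 difference 0.49, 95% interval 0.10 to 0.88, limma adjusted p = 0.74). Akt2 was at 17.6, 24.4 and 18.5 CPM against 29.8, 38.8 and 38.6 CPM, also without overlap and in the other direction (log2 difference −0.80, limma adjusted p = 0.739), while Akt1 (17.8, 9.25 and 18.02 CPM against 16.3, 5.91 and 8.35 CPM) overlapped and was not bounded within 2-fold. Btk, a kinase that PIP3 recruits, was at 79.4, 66.0 and 95.8 CPM against 90.1, 69.6 and 77.1 CPM (log2 difference 0.02), and Rheb, the GTPase that switches on mTORC1, at 111, 106 and 100.2 CPM against 106, 102 and 90.2 CPM, the only member of this list held within 1.5-fold. Akt1 is named for its role, with its values known.

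FOXO1 target genes had no common direction. The median of 16 tested genes of the FOXO factor and target list was −0.01, 7 positive and 9 negative. Of the 16, 11 were bounded within 2-fold, near the background of 62%. The factors of that list include a forkhead gene outside the FOXO family. Foxo1 was at 109.8, 149 and 115 CPM in labelled knockout and 123, 131 and 120.3 CPM in labelled wild type, held within 1.5-fold (log2 difference −0.02, 95% interval −0.37 to 0.34). Ccr7, the receptor that guides cells to T zones, was at 894, 712 and 754 CPM against 794, 891 and 742 CPM, overlapping and held within 1.5-fold. Klf2, a quiescence factor induced by FOXO1, was at 260.8, 103 and 177 CPM against 132, 188 and 198.02 CPM, a mean difference of −0.02 over a spread wide enough that the interval ran from −0.77 to 0.74. The 2 members with an unadjusted p under 0.05 (background 6.65%) went opposite ways. S1pr1, the egress receptor, was at 535, 540.2 and 420.0 CPM against 380.0, 364 and 383 CPM, each labelled-knockout library above each labelled wild type (log2 difference 0.40, limma adjusted p = 0.739). Pdk1, a kinase that inhibits pyruvate dehydrogenase, was at 72.7, 47.8 and 40.9 CPM against 96.1, 109 and 82.8 CPM, each below (log2 difference −0.86, limma adjusted p = 0.73). S1pr1 was bounded within 2-fold and Pdk1 was not. Insr, the insulin receptor, was the least bounded of the list, at 28.3, 28.1 and 1.96 CPM against 30.2, 1.1997 and 11.3 CPM, with an interval that allowed up to 9.84-fold. Foxo1, Klf2 and Insr are named for their roles, with their values known.

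**Figure D3:**
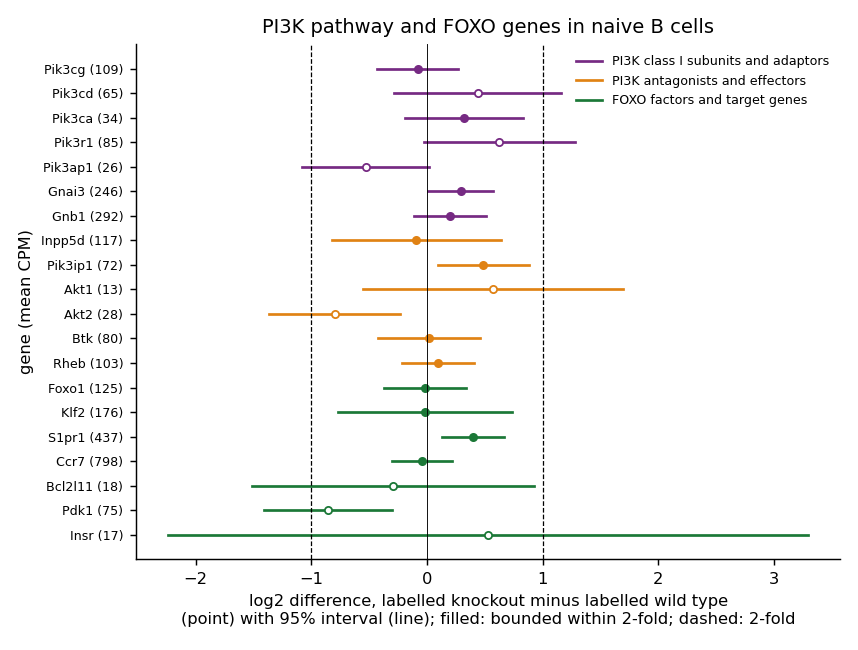
Log2 difference (point) and 95% interval (line) of the tested genes that the text names from the PI3K subunit, PI3K antagonist and effector, and FOXO lists, with mean CPM in parentheses, filled where bounded within 2-fold (dashed lines). Insr has the widest interval shown, and 5 intervals (Gnai3, Pik3ip1, Akt2, S1pr1 and Pdk1) do not include 0.

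Of 29 tested identity and follicular genes of naive B cells, 28 were bounded within 2-fold and 19 within 1.5-fold, against 62% and 7.31% of all genes tested. They are abundant, 28 of them at 100 CPM or more and 17 at 500 CPM or more, and at such levels 97.0% to 97.7% of all genes were bounded within 2-fold and 28.3% to 74.0% within 1.5-fold. Ighm and Ighd, the constant regions of the 2 antigen receptor classes of a naive cell, were at 6549, 5953 and 5973 CPM against 6565, 6755 and 6346 CPM and at 3729, 3769 and 3545 CPM against 3383, 3607 and 3568 CPM. Their intervals allowed at most 1.17- and 1.14-fold. Ms4a1, encoding CD20, was at 3506, 3498 and 3993 CPM against 4209.5, 3917 and 3895 CPM (log2 difference −0.13, 95% interval −0.29 to 0.03), and Cd79b, a signalling chain of the receptor, at 3170.0, 3039 and 3055 CPM against 3349, 3118 and 3042 CPM (log2 difference −0.04, 95% interval −0.17 to 0.10). Among the 12 transcription factors of the list, 11 were bounded within 2-fold, and the exception was Tcf3 (log2 difference 0.42, 95% interval −0.21 to 1.06). Cr2, the complement receptor CD21, and Cd52, a surface glycoprotein, were the 2 members with an unadjusted p under 0.05 (background 6.65%). Cr2 was at 433, 475 and 503 CPM against 566, 508 and 599.9 CPM and Cd52 at 1499, 1426 and 1586 CPM against 1772, 1619 and 1679.8 CPM, both without overlap, lower in labelled knockout, and bounded within 2-fold (log2 differences −0.25 and −0.17, limma adjusted p = 0.74 and 0.74).

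Of 12 tested MHC class II genes, 11 were bounded within 2-fold (background 62%) and 10 within 1.5-fold (background 7.31%). None had an unadjusted p under 0.05 (background 6.65%), and none was without overlap (background 13.6%). Of the 12, 11 averaged 100 CPM or more, and of all genes between 100 and 500 CPM 97.0% were bounded within 2-fold. Cd74, the invariant chain, was at 33744, 36256 and 32828 CPM against 30635, 32592 and 35686 CPM, and the class II chain genes H2-Ab1 and H2-Aa at 15258, 16078 and 16988 CPM against 14024, 15641 and 15915 CPM and at 6686, 7019.8 and 6909.8 CPM against 6646, 7277 and 7148 CPM. The largest folds that the intervals allowed were 1.15, 1.18 and 1.11. The member not bounded was Rfx5, a class II transcription factor with a wide spread between libraries (95% interval −3.30 to 1.73). B2m, the light chain of class I, had one of the smallest errors of all genes and groups that did not overlap: 3489, 3307 and 3339 CPM against 3760.4, 3838 and 3998 CPM, log2 difference −0.19 (limma adjusted p = 0.73), within 1.5-fold.

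Transcripts of antigen receptor signalling genes were bounded within 2-fold for 22 of 24 tested genes (background 62%), with a median difference of −0.06. Of the 24, 16 averaged 100 CPM or more, and of all genes between 100 and 500 CPM 97.0% were bounded. Cd22 and Cd72, inhibitory coreceptors, were at 564, 618 and 607 CPM against 669.5, 581 and 721 CPM and at 454, 408 and 404 CPM against 414, 439 and 439 CPM, both overlapping and within 1.5-fold. Syk, the first kinase of the cascade, was at 316, 314 and 243 CPM against 351, 252 and 306 CPM, overlapping and bounded. Nfatc1, a calcium-responsive transcription factor, was the 1 member with an unadjusted p under 0.05 (background 6.65%). It was at 155, 100.8 and 105 CPM against 204, 157 and 152 CPM, with overlap at the ends of the groups (log2 difference −0.52, limma adjusted p = 0.74).

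Immunoglobulin shares lay apart by small amounts. Kappa light chain, Igkc, was at 15795, 16233 and 15727 CPM against 17779.5, 16437 and 17272 CPM, without overlap and lower in labelled knockout, yet its log2 difference was only −0.11 (95% interval −0.21 to −0.01, limma adjusted p = 0.74) and it was held within 1.5-fold. All immunoglobulin genes together took 3.79, 3.82 and 3.67% against 4.12, 3.86 and 3.94% of CPM, also without overlap (exact permutation test, 2-sided, p = 0.1, which is the lowest value open to 3 against 3 libraries; adjusted p = 0.4 over 20 library measures). Of heavy-chain constant CPM, Ighm took 60.1, 55.9 and 60.1% against 61.8, 62.4 and 60.6% and Ighd 34.2, 35.4 and 35.7% against 31.8, 33.3 and 34.1%. Both shares were without overlap, Ighm lower and Ighd higher in labelled knockout (exact permutation p = 0.1 each, adjusted p = 0.4). Switched classes, which the IgD gate should leave out, took 5.65, 8.68 and 4.29% against 6.39, 4.32 and 5.26% and overlapped. Igha was most of that, at 556, 862 and 367.3 CPM against 646, 385 and 495 CPM, while Ighg2b, at 21.2, 29.1 and 16.5 CPM against 0, 35.0 and 12.4 CPM, had an interval that allowed up to 19.1-fold; both were named after their values were seen. The lambda share of light chain overlapped, at 22.1, 21.4 and 21.8% against 22.5, 21.1 and 20.6%.

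Of 15 tested receptors and adhesion genes that place B cells in the spleen, 11 were bounded within 2-fold (background 62%). The list is abundant, with 11 members averaging 100 CPM or more, and of all genes between 100 and 500 CPM 97.0% were bounded. An unadjusted p under 0.05 was found for 2, both higher in labelled knockout (background 3.68%). These were S1pr1, above, and Cnr2, a cannabinoid receptor that signals through Gαi, at 564, 475 and 435 CPM against 374, 383 and 297 CPM without overlap (log2 difference 0.48, 95% interval 0.16 to 0.81, limma adjusted p = 0.739). Cxcr5, the receptor for the follicular chemokine CXCL13, was at 910.5, 561 and 768 CPM against 734, 828 and 691 CPM, overlapping, bounded, and allowing at most 1.35-fold. Ltb, lymphotoxin β, was at 3164, 3015 and 3395 CPM against 3335, 2861 and 2952 CPM, within 1.5-fold. Among 13 tested marginal zone and B-1 genes, 11 were bounded (background 62%), at a median level of 81.7 CPM. Tcf4, an E protein, was at 159, 173 and 176 CPM against 125, 123 and 151 CPM without overlap (log2 difference 0.35, limma adjusted p = 0.74), opposite in direction to Cr2 of the same list.

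Of 49 tested survival, NF-kB and immediate-early genes, 4 had groups that did not overlap, a share below the background of 13.6%. All 6 tested pro-survival genes were bounded within 2-fold (background 62%). Among them were Tnfrsf13c, the BAFF receptor, at 1100.0, 1002 and 1167 CPM against 1035, 969 and 1173 CPM and Bcl2 at 133, 221 and 179 CPM against 134, 144 and 179 CPM. Of 8 tested pro-death genes, 5 were bounded within 2-fold (background 62%) and 0 within 1.5-fold (background 7.31%), Bak1, Bcl2l11 and Bmf being the exceptions at 2-fold. Of 16 NF-kB and CD40 response genes, 12 were bounded (background 62%) and none had an unadjusted p under 0.05 (background 6.65%). Cd83, an activation marker, was at 1336, 1583 and 1169 CPM against 1367, 1285 and 1363 CPM (log2 difference 0.02, within 1.5-fold). Immediate-early genes respond within minutes to stimulation and to cell handling. Of the 19 tested in that list, which also holds heat shock genes, 15 were bounded within 2-fold (background 62%) and 0 within 1.5-fold (background 7.31%). Of these 19, 13 averaged 100 CPM or more, and of all genes between 100 and 500 CPM 97.0% were bounded within 2-fold. The members not bounded within 2-fold were Egr2, Egr3 and the heat shock genes Hspa1a and Hspa1b. Junb, a subunit of the AP-1 factor, was at 2101, 1012 and 1364 CPM against 1636, 1394 and 1926 CPM and Fos at 1569, 1299 and 1315 CPM against 1319, 1317 and 1872 CPM, both overlapping. Zfp36, which degrades cytokine mRNAs, was the 1 member with an unadjusted p under 0.05 (background 6.65%). It was at 1993, 1615 and 1410.5 CPM against 1909.9, 2174 and 2362 CPM (log2 difference −0.37, limma adjusted p = 0.74).

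Of 24 tested interferon-stimulated genes, 13 were bounded within 2-fold (background 62%). The list had a median level of 38.1 CPM, with 5 members at 100 CPM or more. Of all genes from 20 to 50 CPM, 56.5% were bounded, so the share was near that of genes at this level. An unadjusted p under 0.05 was found for 5, 1 higher (background 3.68%) and 4 lower (background 2.97%) in labelled knockout. Ifi203, of the interferon-inducible p200 family, was at 147, 174 and 137 CPM in labelled knockout and 246.1, 223.3 and 292 CPM in labelled wild type, with no overlap (log2 difference −0.73, 95% interval −1.07 to −0.39, limma adjusted p = 0.728). Ifi27l2a was at 51.3, 65.1 and 73.5 CPM against 81.4, 112 and 95.3 CPM without overlap and Trim30a at 64.7, 63.5 and 114 CPM against 131, 108 and 142 CPM, the last with overlap. Gbp7, a guanylate-binding protein, went the other way at 82.5, 92.1 and 67.8 CPM against 36.8, 46.5 and 54.6 CPM (log2 difference 0.81, limma adjusted p = 0.73). Ifi209, another p200 gene, was at 444, 513 and 470.3 CPM against 397, 501 and 474 CPM, overlapping and within 1.5-fold, and Irf9, an interferon-response transcription factor, at 136, 164 and 150.2 CPM against 149, 169.8 and 167 CPM, likewise. The median of the list was −0.06.

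Transcripts of the mitochondrial genome lay higher in labelled knockout. That genome encodes 13 subunits of the respiratory chain and ATP synthase and the RNAs of the mitochondrial ribosome. Of the 13 coding transcripts, 11 had an unadjusted limma p under 0.05, all higher in labelled knockout (background 3.68% of genes), and 12 had groups that did not overlap (background 13.6%), 11 of these higher in labelled knockout and mt-Nd3 lower. None passed after adjustment. Their median difference was 0.68, against −0.01 over all genes, and it stayed between 0.55 and 0.86 under 20 alternative settings. Only 5 of the 13 were bounded within 2-fold, although all were bounded within 4-fold. The 13 come from 2 long precursors and are not independent of each other.

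A stretch of chromosome 1 (chr1:24611535-24616197, mm10, minus strand, GENCODE M21) holds nuclear copies of 7 of the 13 genes, and the copies are nearly letter-perfect. The start of mt-Atp6 (chrM:7927-8046, plus strand) and of its copy Gm10925 (chr1:24614532-24614651, minus strand) are shown because they are the same, 120 of 120 bases:
mt-Atp6: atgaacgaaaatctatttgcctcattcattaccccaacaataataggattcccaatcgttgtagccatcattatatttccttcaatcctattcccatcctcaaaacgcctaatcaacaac
Gm10925: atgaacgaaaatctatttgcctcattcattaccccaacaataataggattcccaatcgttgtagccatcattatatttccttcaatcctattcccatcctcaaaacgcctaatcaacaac
Over the whole copy, all 678 bases match. The start of mt-Nd3 (chrM:9459-9518, plus strand) and of its copy Gm28438 (chr1:24613060-24613119, minus strand) hold the only difference between that pair, in capitals, T3C counted from 1 at the first base of mt-Nd3:
mt-Nd3: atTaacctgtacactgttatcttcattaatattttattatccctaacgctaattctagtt
Gm28438: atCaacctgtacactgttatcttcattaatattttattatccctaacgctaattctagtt
Identity was 100% for the copies of mt-Nd4, mt-Nd4l, mt-Co3, mt-Atp6 and mt-Co2, 99.7% for mt-Nd3 and 99.8% for mt-Co1, where the copies of mt-Nd4 and mt-Co1 cover 63.6% and 31.3% of the gene. A short read that falls wholly within an identical stretch does not tell one genome from the other.

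The deposited values of gene and copy ran together. Gm10925 was at 2849.8, 3245 and 2939 CPM against 1275, 2026 and 1623 CPM, and mt-Atp6 at 2852, 3235 and 2937 CPM against 1267, 2025 and 1642 CPM, so that the copy held 0.989 to 1.01 times the CPM of the gene in every library, at 678 and 681 bases of length. The same ratio was 0.993 to 1.01 for mt-Co3 and its copy and 0.987 to 1.01 for mt-Co2 and its copy. The 15 genes of the mitochondrial genome took 2.16, 2.48 and 2.29% against 1.36, 1.77 and 1.54% of CPM, and 2.77%, 3.16% and 2.95% against 1.74%, 2.27% and 1.96% with the 7 copies added. Each labelled-knockout library lay above each labelled-wild-type library either way (exact permutation p = 0.1 for the first share, the smallest possible, adjusted p = 0.4 over 20 measures). With each gene and its copy summed, a setting added after the data were seen, mt-Atp6 had a log2 difference of 0.90 where it had 0.89 alone.

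Several genes without a copy in that stretch also had higher values in labelled knockout. The complex III gene mt-Cytb was at 4500.2, 5949.6 and 4531 CPM in labelled knockout and 2142, 3079.9 and 2787 CPM in labelled wild type, with no overlap (log2 difference 0.91, 95% interval 0.55 to 1.27, limma adjusted p = 0.728). Among complex I genes, mt-Nd5 was at 583, 699 and 541 CPM against 235.3, 395 and 317 CPM (log2 difference 0.97) and mt-Nd2 at 549, 685 and 557 CPM against 267, 412 and 366.1 CPM (log2 difference 0.79). mt-Nd6, the one coding gene on the other strand of the circle, was at 125, 145 and 120.1 CPM against 70.5, 93.3 and 88.1 CPM (log2 difference 0.63). Of complex IV, mt-Co1 was at 2723, 3657 and 2843 CPM against 1666, 2219 and 1951 CPM and mt-Co2 at 651, 901 and 827 CPM against 475, 609 and 559 CPM, each without overlap (log2 differences 0.66 and 0.53), while mt-Co3 was at 1872, 1565 and 1985 CPM against 1501, 1733 and 1509 CPM, overlapping and held within 1.5-fold (log2 difference 0.19, 95% interval −0.06 to 0.43). The ribosomal RNAs had smaller differences than most coding genes: mt-Rnr1 was at 1009.9, 944 and 1144 CPM against 782, 892 and 807 CPM and mt-Rnr2 at 4804, 4550.2 and 5372 CPM against 4190.4, 4544 and 3953 CPM (log2 differences 0.32 and 0.21, named after their values were seen). mt-Nd3, mt-Nd6, mt-Co2 and others of this list outside the naming rule are given because the copies and the complexes called for them, with their values known. In 11 of the 13 coding genes the second labelled-knockout library, which was also the deepest, had the highest value. With that library left out the list median was 0.57.

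**Figure D4:**
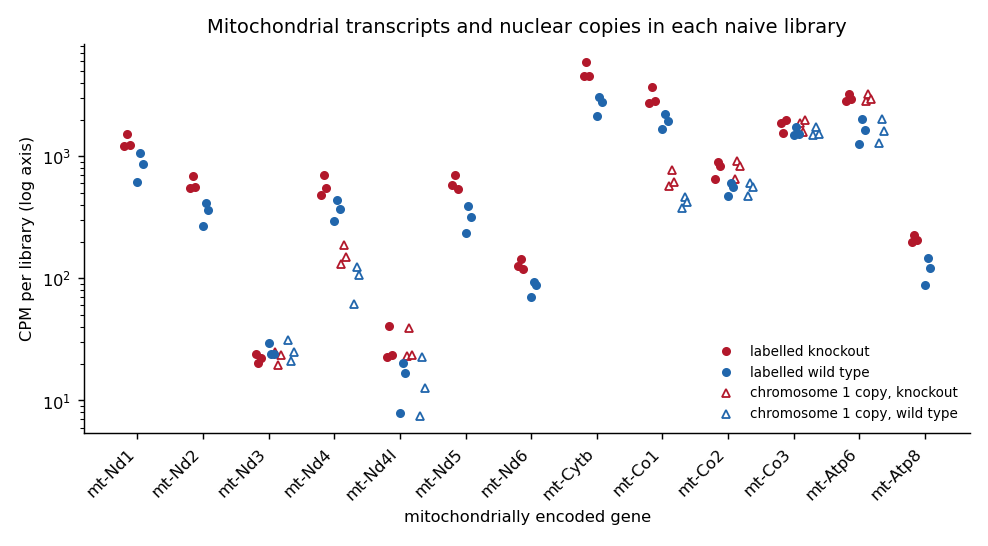
CPM on a log axis of the 13 mitochondrial coding genes (filled circles) and of the chromosome 1 copies of 7 of them (open triangles) in each of the 3 labelled-knockout (red) and 3 labelled-wild-type (blue) libraries. Red circles stand above blue ones except for mt-Nd3 and mt-Co3, and triangles repeat the circles for mt-Atp6, mt-Co2 and mt-Co3.

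Nuclear genes for the same machinery mostly had small negative differences. Of 72 tested nuclear respiratory chain genes, 71 were bounded within 2-fold (background 62%). Their median level was 52.4 CPM, and of all genes from 50 to 100 CPM 85.2% were bounded. Negative differences were seen for 60, and the median difference was −0.15 (−0.21 to −0.10 over 20 alternatives), against −0.01 over all genes. An unadjusted p under 0.05 was found for 3, all lower in labelled knockout, a share near the background of 2.97%, and they are given as values: Ndufv1, a flavoprotein of complex I, at 46.8, 46.3 and 48.3 CPM against 67.7, 63.4 and 65.9 CPM, Atp5a1, an ATP synthase subunit, at 227, 198.5 and 232 CPM against 273, 245 and 306.6 CPM, and Cox6a1 of complex IV at 142, 143 and 159.5 CPM against 186, 177 and 171 CPM, with log2 differences of −0.47, −0.32 and −0.26. The summed share of the nuclear respiratory chain overlapped, 0.517, 0.522 and 0.591% against 0.638, 0.578 and 0.570% of CPM (exact permutation p = 0.3, adjusted p = 0.75). All 14 tested genes of ATP synthase were negative, and 13 of them were bounded. Of 9 tested factors that copy, transcribe or translate the mitochondrial genome, or control its supply of proteins, 2 were bounded (background 62%). The list is scarce, with a median level of 20.02 CPM and no member at 100 CPM or more. Of all genes, 23.8% were bounded between 10 and 20 CPM and 56.5% from 20 to 50 CPM. Tfam, which packages the mitochondrial genome, was bounded, at 61.9, 105 and 67.5 CPM against 85.6, 77.2 and 88.4 CPM, overlapping. Gabpa, a transcription factor of nuclear respiratory genes, was at 91.3, 91.3 and 88.3 CPM against 31.2, 65.1 and 46.4 CPM without overlap (log2 difference 0.97, limma adjusted p = 0.73).

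Ribosomal protein genes leaned the same way as the nuclear respiratory genes. Of 73 tested, 68 had negative differences, 67 were bounded within 2-fold (background 62%), and 33 had groups that did not overlap (background 13.6%). Their median level was 88.2 CPM, and of all genes from 50 to 100 CPM 85.2% were bounded. The median difference was −0.20, between −0.26 and −0.17 under 20 alternatives, against −0.01 over all genes. The summed share of ribosomal proteins overlapped, 1.19, 1.16 and 1.32% against 1.49, 1.39 and 1.31% of CPM (exact permutation p = 0.2, adjusted p = 0.667). With an unadjusted p under 0.05 there were 6 lower (background 2.97%) and 1 higher (background 3.68%). Rpl4, of the large subunit, was at 806, 836 and 835 CPM against 859, 900.5 and 889 CPM and Rpl7 at 229.8, 256 and 256 CPM against 305, 293 and 298 CPM, both without overlap (log2 differences −0.10 and −0.27). Rplp0, a stalk protein, was at 866, 869 and 993 CPM against 1186, 986 and 969 CPM, overlapping (log2 difference −0.20). Rps13 was the one higher member, at 32.2, 29.4 and 40.9 CPM against 15.5, 24.1 and 17.6 CPM (log2 difference 0.82, limma adjusted p = 0.739). Processed pseudogenes, many of which copy ribosomal protein genes, took 14.1%, 14.1% and 14.9% of CPM against 16.4%, 15.3% and 15.0%, a shift in the same direction without overlap, and the part of shared reads in either was not tested. Eef1a1, the elongation factor, had one of the smallest errors of all and was at 3955, 3807 and 4122 CPM against 4596, 4316 and 4260.2 CPM (log2 difference −0.15, limma adjusted p = 0.74).

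Of the remaining housekeeping lists, 13 of 15 glycolytic genes were bounded within 2-fold (background 62%), with a median difference of −0.06. Their median level was 53.4 CPM, and of all genes from 50 to 100 CPM 85.2% were bounded. Aldoa was at 391, 328 and 362 CPM against 378.9, 349.5 and 387 CPM. Pkm was at 342.5, 292 and 318.6 CPM against 347, 317 and 353.8 CPM. Both overlapped and were held within 1.5-fold. Ldha, lactate dehydrogenase, was at 193, 207 and 169 CPM against 239, 231 and 219 CPM without overlap (log2 difference −0.28, limma adjusted p = 0.74). Of 17 proteasome subunits, 16 were bounded (background 62%), at a median level of 64.15 CPM, and the median difference was −0.13. The immunoproteasome subunit Psmb8 was at 449, 427 and 543 CPM against 494, 479 and 507 CPM, overlapping.

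The gene with the smallest p-value was Senp1, a protease that removes SUMO from proteins, at 69.8, 74.8 and 57.7 CPM in labelled knockout and 24.96, 27.4 and 26.4 CPM in labelled wild type (log2 difference 1.32, 95% interval 0.89 to 1.75, limma adjusted p = 0.728). Its lowest labelled-knockout value was over the highest labelled-wild-type value. Of 15 tested SUMO and ubiquitin-like pathway genes it was the 1 with an unadjusted p under 0.05, a share near the background of 6.65%. The genes that follow were ranked by p among non-overlapping genes at 50 CPM or more, with predicted genes and pseudogenes left out. Beside the mitochondrial genes, the highest-ranked higher genes of that set were Necap2 and Atg12. Necap2, an endocytosis protein, was at 208, 179 and 169 CPM against 106, 117 and 118.5 CPM. Atg12, an autophagy conjugation protein, was at 121, 125 and 125 CPM against 72.0, 84.2 and 53.4 CPM. Lower in labelled knockout without overlap were Ccng1, a cyclin induced by p53, at 145, 156 and 131 CPM against 221.6, 206 and 198.9 CPM, Cers2, a ceramide synthase, at 98.8, 98.8 and 112 CPM against 168, 158 and 141 CPM, Ucp2, a mitochondrial carrier, at 257, 224 and 209 CPM against 318.99, 305 and 329 CPM, and Calr, a chaperone of the endoplasmic reticulum, at 243, 238 and 243 CPM against 295.02, 365.7 and 393 CPM. Ago2, of the RNA-silencing machinery, was at 44.9, 33.4 and 39.8 CPM against 74.3, 59.0 and 72.9 CPM and Tsc22d1 at 42.6, 35.6 and 48.6 CPM against 114, 68.6 and 72.4 CPM. Necap2, Ccng1, Cers2, Ucp2 and Calr were at once ranked among the smallest p-values and bounded within 2-fold, with log2 differences of 0.69, −0.53, −0.58, −0.47 and −0.53. None passed (limma adjusted p = 0.728).

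Some transcripts varied mainly between libraries of the same label. Among genes at 100 CPM or more the largest within-group SDs were those of haemoglobin: Hbb-bs was at 129, 16.0 and 201.3 CPM against 95.2, 407 and 142 CPM and Hba-a1, which shares reads with its near-identical neighbour Hba-a2, at 107, 14.6 and 139 CPM against 58.6, 340.2 and 116 CPM. The second labelled-wild-type library was highest and the second labelled-knockout library lowest for each, and the intervals allowed up to 10.2- and 9.28-fold. Next in order were the predicted genes Gm43305, at 157, 123.9 and 106 CPM against 29.8, 172 and 94.0 CPM, and Gm11560, at 178, 98.1 and 54.6 CPM against 54.6, 107 and 134 CPM, and then Iqsec1, at 117, 175 and 47.4 CPM against 83.7, 126 and 79.1 CPM. The heat shock gene Hspa1a was at 2966, 1675 and 5248 CPM against 1576, 2991 and 2980.0 CPM, highest in the third labelled-knockout library, and Hspa1b, its near-identical neighbour, at 716, 402 and 1262 CPM against 380.99, 714 and 696 CPM. The granule genes Ngp, at 15.6, 30.9 and 0 CPM against 0, 102 and 16.0 CPM, and S100a8, at 6.16, 13.6 and 3.996 CPM against 0, 30.8 and 9.23 CPM, belong to neutrophils and were again highest in the second labelled-wild-type library. In every one of these the groups overlapped. At the other end, with predicted genes, pseudogenes and variable segments left out, the genes with the smallest errors were Igkc, Ly6e, H2-Aa, B2m, H2-DMb2, Ighd, Ighm and Eef1a1. Ly6e, an interferon-inducible surface protein, was at 4575, 4654 and 4553 CPM against 4505, 4358 and 4678 CPM, and H2-DMb2, a class II peptide editor, at 3011, 3018 and 3015 CPM against 2959, 3146 and 3171 CPM, with largest folds of 1.10 and 1.12.

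**Figure D5:**
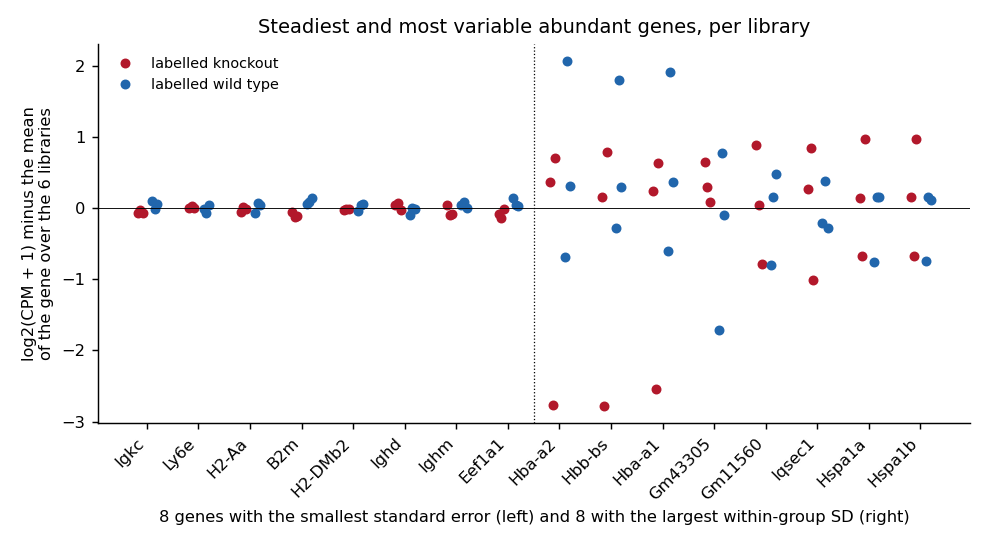
Log2(CPM + 1) minus the gene's mean over the 6 libraries, per library, for the 8 genes with the smallest standard error (left of the dotted line) and the 8 with the largest within-group SD (right), all at a mean of 100 CPM or more. On the left the points nearly coincide, and on the right haemoglobin spans several log2 units with red and blue points mixed.

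Markers listed for other cell types included a few without overlap. Pecam1, encoding CD31, which endothelial cells, platelets and many leukocytes carry, was at 239.8, 248 and 239 CPM against 153, 209.5 and 188 CPM without overlap (log2 difference 0.41, limma adjusted p = 0.74). The other 3 listed stromal or endothelial markers averaged under 1 CPM, and both platelet markers did too. Of the plasma cell list, Jchain was at 589, 744 and 449 CPM against 467, 432 and 369.9 CPM and Xbp1 at 313, 247 and 258.3 CPM against 385, 328 and 364 CPM (log2 differences 0.46 and −0.40, limma adjusted p = 0.74 and 0.739), in opposite directions, Xbp1 without overlap. The summed germinal centre markers overlapped, at 80.2, 121 and 87.5 CPM against 91.8, 75.8 and 82.2 CPM, but 3 of the 12 markers, all averaging under the 10 CPM filter and so not tested, were higher in every labelled-knockout library than in any labelled wild type. S1pr2, a receptor that holds cells in germinal centres, was at 9.77, 14.9 and 6.50 CPM against 0, 0.0857 and 0 CPM, labelled wild type lying under the limit that a count of 0 allows. Mef2b, a transcription factor of germinal centre B cells, was at 9.19, 9.85 and 4.94 CPM against 1.45, 1.89 and 3.52 CPM, and Gcsam, a signalling adaptor of those cells, at 5.77, 16.8 and 6.66 CPM against 2.68, 2.23 and 4.40 CPM. These 3 were named after their values were seen, and the background of non-overlap, 13.6%, is over tested genes. The 4 tested members of the list leaned the other way, with 1 positive and 3 negative differences, a median of −0.23 and 0 without overlap. Of these 4, Rgs13 was at 7.92, 17.3 and 22.6 CPM against 28.02, 10.2 and 14.9 CPM, overlapping and not bounded.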

How the data were processed

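RNA-seq of 6 sorted naive B cell samples was used, grouped by the genotype label. The values are CPM as deposited by the authors in 1 table. STAR and mm10 are named in the submitters' processing notes, while how reads were counted, on which annotation and with which strand setting is not stated by the labels or headers. Of 19416 rows, 19 whose names had turned into dates were left out. In the estimated reads, 85.2% to 85.6% of values under 1000 lay within 0.02 of a whole number, so counts were taken as estimated and no count model was the main test.

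Genes that averaged 10 CPM or more were fitted with limma 3.58.1 in R 4.3.3 on log2(CPM + 1) with a mean-variance trend and no block, and Benjamini-Hochberg adjustment over all tested genes (threshold 0.05). Differences are on that scale, which understates the change of low genes. Bounds came from 2 one-sided tests in the same fit, and intervals are 95%. Library shares were tested by exact permutation in SciPy 1.17.1. Python 3.11.15, pandas 2.3.3 and matplotlib 3.10.9 were used. Gene positions are from GENCODE M21, which placed 98.2% of tested symbols. The sequences of the mitochondrial genes and their copies were read from the transcript sequences given with it and aligned.

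The procedure was tested on artificial data with known differences for 8832 genes of this comparison. It called 8%, 32%, 76% and 88% of genes changed 1.5-, 2-, 4- and 8-fold, with 5 false calls, bounded 68.5% of unchanged genes within 2-fold and 3% of those at exactly 2-fold, and 94.8% of its intervals held the true difference.

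Genes were named by a rule: Pik3cg, the 8 genes in each direction with the smallest p among non-overlapping genes at 50 CPM or more, the 8 with the smallest standard error and the 8 with the largest SD at 100 CPM or more, and, for each list, up to 4 of the most abundant members and up to 4 with an unadjusted p under 0.05. Predicted genes, pseudogenes and variable segments were left out of the sets by smallest p and by smallest standard error. The members and lists were chosen with earlier results of these data known. Alternatives covered the pseudocount, filter, scaling, fit, weights, replicate block, threshold and each library left out. Some genes of the lists are not reported here by name.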

Additional observations from a re-analysis of the deposited data

How the results depend on the processing

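No alternative gave a call: the count stayed at 0 with the pseudocount, filter, scaling, moderation, weights, replicate block, threshold, left-out library and summed mitochondrial copies varied, the last chosen after seeing the data. The smallest limma adjusted p ranged from 0.274 with a filter of 50 CPM to 0.891 without labelled-knockout replicate 2. Genes with an unadjusted p under 0.05 numbered 308 of those at 50 CPM or more and 927 with no filter, since fewer or more genes were tested. Of 8832 genes, 5478 were bounded within 2-fold. The count was 3301 with the 50 CPM filter, by fewer genes tested, 646 for a 1.5-fold and 8354 for a 4-fold bound, and 4218 to 4758 with 1 library left out. A pseudocount of 5 gave 6696 bounded genes (75.8%) and one of 0.5 gave 5309 (60.1%). A filter of 1 CPM gave 4936 of 13955 genes (35.4%). With the replicate block the bounded count was 5150, with 0 calls and 525 genes at an unadjusted p under 0.05. Deviations of same-numbered libraries correlated at −0.05, 0.04 and −0.03, so the numbers were not taken to pair samples.

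A reversal was counted for a gene where the sign turned and the value moved by over 1 standard error. Ighm went from −0.091 to 0.016 with quantile normalization. With 1 library left out, the log2 difference ran from −0.37 to 0.28 for Inpp5d, −0.19 to 0.16 for Cxcr5, −0.181 to 0.0754 for Fos, −0.10 to 0.12 for Cd83, −1.16 to 0.57 for S100a8, −0.33 to 0.33 for Klf2 and −0.14 to 0.48 for Igha. Inpp5d, Cxcr5, Cd83, Klf2 and Igha turned without labelled-knockout replicate 2, Fos without labelled-wild-type replicate 3, and S100a8 without labelled-wild-type replicate 1. The cause was not tested. The germinal centre marker list had no member left with the 50 CPM filter. Fewer genes were bounded at low levels, and the part of depth in that was not tested.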
